A study of Homo sapiens with 6 samples.

Results

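MTHFD2 and the enzymes that make serine and pass its carbon to folate were followed across all libraries of a POU2F1 knockdown in HCT116, a human colorectal cancer cell line. The 10 genes were taken by symbol, and all 10 were found once among 20474 annotated genes, of which 11831 were tested. They comprised 5 genes of the mitochondrial branch (SHMT2, MTHFD2, MTHFD2L, MTHFD1L and ALDH1L2), 2 of the cytosolic branch (SHMT1 and MTHFD1) and 3 of serine synthesis (PHGDH, PSAT1 and PSPH). MTHFD2 led to this choice because it was lower in the knockdown, so its difference between the groups is given as a description with no test, and the other 9 genes were taken for their place in the pathway. The siPOU2F1 cells (genotype label POU2F1 knockdown) were transfected with siRNA to POU2F1, the gene of the octamer-binding factor OCT1. The sicontrol cells (genotype label WT) were transfected with the control siRNA. Both were harvested 48 h after transfection, and each group held 3 polyA RNA libraries. Nothing in the labels ties the libraries to separate cultures. The p-values hence cover only the spread among these 6 libraries, and that spread may be technical. The siRNAs are not described further in the sources used here. In bulk RNA a smaller share of cells with a transcript and less of it per cell cannot be told apart.

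Folate carries single carbon units in cells, and serine is their main donor. In mitochondria SHMT2 moves the carbon of serine to tetrahydrofolate, MTHFD2 or its paralogue MTHFD2L oxidises the product, MTHFD1L releases the carbon as formate, and ALDH1L2 can instead oxidise it to CO2. In the cytosol MTHFD1 takes up the formate for purine and thymidylate synthesis, and SHMT1 interconverts serine and glycine. PHGDH, PSAT1 and PSPH make serine from a glycolytic intermediate. MTHFD2 is known for high expression in tumours and low expression in most adult tissues, and ATF4 is a known activator of many of these genes.

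Values are FPKM, fragments per kilobase of a transcript, corrected for library size. Differences are siPOU2F1 minus sicontrol on the log2(FPKM + 0.5) scale, on which low genes appear to differ less than they do. The word called marks genes with a Benjamini-Hochberg adjusted p under 0.05 over all tested genes (limma). The files hold no read counts, and the depth of the libraries is unknown. Steps among low values put their depths at 0.78 to 1.00 times that of sicontrol replicate 1, with siPOU2F1 replicate 1 the lowest, each from 8 to 13 genes. Epithelial genes such as EPCAM (215 FPKM in siPOU2F1 cells and 213 FPKM in sicontrol cells on average) were present in every library, and 3 of 4 leukocyte markers and 3 of 4 fibroblast markers averaged below 0.1 FPKM, with PTPRC, COL3A1 and DCN at 0. The other leukocyte and fibroblast markers, LYZ and COL1A1, averaged 0.922 and 2.55 FPKM. Of 4 endothelial markers, 2 averaged below 0.1 FPKM and none reached 1 FPKM. The 8 epithelial and colonic markers summed to between 3191 and 4410 FPKM in siPOU2F1 libraries. In sicontrol libraries the sums were between 2219 and 2962 FPKM, with KRT20 and CDX1 near 0. Most of each sum was KRT8 (mean 1684 FPKM in siPOU2F1 cells and 857 FPKM in sicontrol cells) and KRT18 (2023 and 1373 FPKM). CDH1 averaged 23.6 and 21.8 FPKM. The part of these markers in the results was not tested. The library of siPOU2F1 replicate 3 stood apart from its group. Its correlation across tested genes was 0.946 with siPOU2F1 replicate 1, 0.948 with siPOU2F1 replicate 2 and 0.977 with sicontrol replicate 2, while the other siPOU2F1 libraries had 0.989 between them. The sicontrol libraries differed too, with 0.972 between sicontrol replicates 2 and 3. Replicates 1 and 2 of siPOU2F1 had 0.967 and 0.966 with sicontrol replicate 3, against 0.930 and 0.931 with sicontrol replicate 2. These are values across genes, which do not stand as replicates. Over all tested genes 147 were called. Without siPOU2F1 replicate 3 the number was 2954, without sicontrol replicates 2 and 3 it was 5 and 9, and it was 0 on leaving out sicontrol replicate 1 or either of siPOU2F1 replicates 1 and 2 (limma; an unadjusted p under 0.05 was reached by 1333, 1255 and 1176 genes in these last fits). Values without siPOU2F1 replicate 3 are given beside the named genes whose call depended on it.

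The target of the siRNA was lower in every siPOU2F1 library. POU2F1 measured 1.87, 1.69 and 1.73 FPKM in siPOU2F1 replicates 1 to 3, against 4.16, 3.60 and 4.26 FPKM in sicontrol replicates 1 to 3. The siPOU2F1 mean was 44.0% of the sicontrol mean. POU2F1 was called at a log2 difference of -0.99 (SE 0.14; limma, adjusted p = 0.0333). By exact permutation of its values, two-sided, p was 0.1, which is the lower limit of a design with 3 libraries a group. That call was lost on leaving out any of the other 5 libraries (limma, adjusted p from 0.114 to 0.220), but not on leaving out siPOU2F1 replicate 3 (0.00982).

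MTHFD2, the mitochondrial dehydrogenase and cyclohydrolase of the folate pathway, stood at 49.1% of its sicontrol level in siPOU2F1 cells. The gene (ENSG00000065911) lies on the plus strand of chromosome 2 at 74198562 to 74217565 (GRCh38). It measured 67.1, 75.3 and 78.4 FPKM in siPOU2F1 replicates 1 to 3, against 159, 151 and 140 FPKM in sicontrol replicates 1 to 3. All 3 siPOU2F1 libraries lay below every sicontrol library, including siPOU2F1 replicate 3, the library that stood apart. The means were 73.6 ± 5.86 FPKM in siPOU2F1 cells and 150 ± 9.74 FPKM in sicontrol cells (SD, n = 3 each), a log2 difference of -1.02 with an SE of 0.10. Leaving out each library in turn gave differences from -1.07 to -0.96. MTHFD2 was 1 of 100 genes called lower, which were 0.845% of those tested, and nothing is read from that call because it led to the choice. Among the 532 tested genes with a mean level at least as high as MTHFD2, itself included, 4 had a lower log2 difference, and among all tested genes 127 did, which again describes the value that led to the choice.

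Sequence around the MTHFD2 gene is shown because the factor that was lowered binds DNA and because a short word in transcripts was linked earlier to lower values in these libraries. The RefSeq promoter window of MTHFD2 (GRCh38.p14) was searched on both strands for the octamer ATGCAAAT, the known motif of POU2F1, for TGATGNAA, the core of the composite element known for ATF4, and for the E-box CACGTG, a known MYC motif. The window held none of them. The part of it before the first annotated base of the gene, at chr2:74198365-74198561 on the plus strand, is therefore shown without capitals.
MTHFD2 promoter: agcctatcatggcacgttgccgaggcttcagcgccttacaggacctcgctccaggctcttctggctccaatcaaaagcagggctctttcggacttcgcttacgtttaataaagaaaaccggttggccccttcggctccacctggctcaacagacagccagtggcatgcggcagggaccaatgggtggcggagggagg
The word AACTGCA was chosen from the fold changes of these same libraries, where 51 of 99 searched genes called lower (51.5%) and 12.4% of 11520 tested genes held it in the 3′ UTR, so its presence in MTHFD2 supports nothing. In MTHFD2 it occurs once in the last of 8 exons, at position 549 of a 3′ UTR of 3323 bases and at chr2:74214791-74214797. The site is shown at chr2:74214780-74214808 on the plus strand, with the word in capitals.
MTHFD2 3′ UTR site: gaaaaaagaaaAACTGCAtgttaatcatt
The 3′ UTRs of the other 9 genes held no copy of the word in the annotated transcript with the longest coding sequence.

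Promoter windows, from 250 bases before to 50 after a start, were matched for 7 of the 10 genes, with 11 windows in all. None of the 11 held the octamer, which 1.77% of the 35116 RefSeq windows and 1.29% of the 13991 windows of tested genes held. TGATGNAA was found in MTHFD1L alone among the 7, in 3.62% of all windows and in 1.91% of those of tested genes. CACGTG was found in MTHFD1L and MTHFD1, in 7.26% of all windows and in 9.36% of those of tested genes. Genes and windows are unlike units here, since MTHFD1L had 4 of the 11 windows. In the MTHFD1L window at chr6:150866236-150866535 CACGTG began at position -154 and TGATGCAA at position -129 relative to the start. In MTHFD1 the CACGTG began at position -15. These matches describe letters in a window and not binding.

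**Figure D1:**
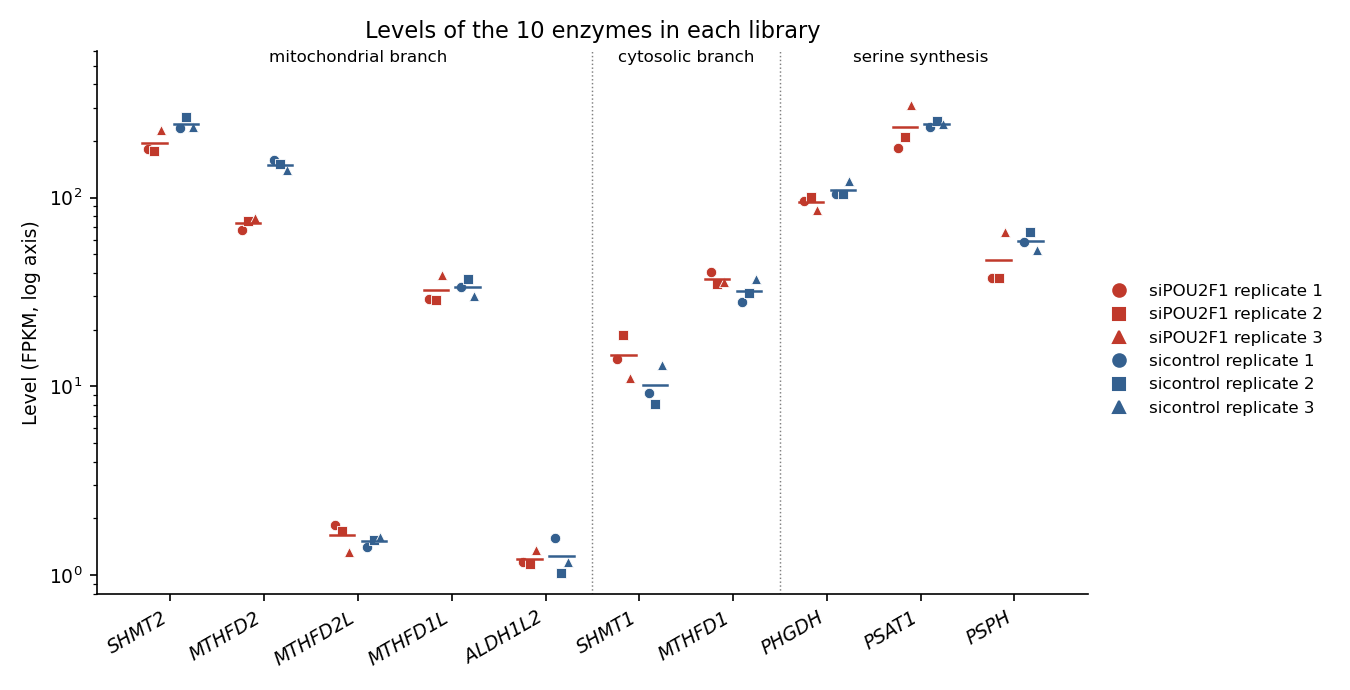
FPKM on a log axis in each siPOU2F1 library (red) and each sicontrol library (blue) for the 10 genes, with circles, squares and triangles for replicates 1, 2 and 3 and a line at each group mean. MTHFD2 lies between 67.1 and 78.4 FPKM in siPOU2F1 libraries and between 140 and 159 FPKM in sicontrol libraries, the widest gap on the plot. Its lower level led to the choice of the genes.

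The levels of the 10 genes spanned from PSAT1 and SHMT2 near 200 FPKM down to ALDH1L2 and MTHFD2L near the lowest level tested, which was a mean of 1 FPKM. In siPOU2F1 cells the order was PSAT1 (235 FPKM), SHMT2 (195), PHGDH (94.3), MTHFD2 (73.6), PSPH (46.9), MTHFD1 (37.1), MTHFD1L (32.3), SHMT1 (14.6), MTHFD2L (1.63) and ALDH1L2 (1.22). In that group the ranges of neighbours overlapped between PSAT1 and SHMT2, between PSPH and MTHFD1, between MTHFD1 and MTHFD1L, and between MTHFD2L and ALDH1L2. In sicontrol cells the order was SHMT2 (246 FPKM), PSAT1 (245), MTHFD2 (150), PHGDH (110), PSPH (59.1), MTHFD1L (33.7), MTHFD1 (32.2), SHMT1 (10.1), MTHFD2L (1.52) and ALDH1L2 (1.26). There the ranges overlapped between SHMT2 and PSAT1, between MTHFD1L and MTHFD1, and between MTHFD2L and ALDH1L2. MTHFD2 lay below PHGDH in siPOU2F1 cells and above it in sicontrol cells, and their ranges overlapped in neither group. The lower level of MTHFD2 led to the choice of the genes, so nothing is read from this change of order.

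None of the 9 genes other than MTHFD2 was called (limma, 1.24% of all tested genes called; 1 of the 9 had an unadjusted p under 0.05, as did 18.1% of all tested genes). Of the 9, 6 had a negative and 3 a positive log2 difference, with a median of -0.07 against -0.01 over all tested genes. SHMT2 and PHGDH had siPOU2F1 values below every sicontrol value, as did 12.0% of tested genes. The siPOU2F1 values of none of the 9 lay above every sicontrol value, a pattern seen in 11.3% of tested genes. Without siPOU2F1 replicate 3, SHMT2 and PSPH were called lower, in a fit that called 25.0% of all tested genes in either direction. By direction, that fit called 15.7% of all tested genes lower and 9.29% higher.

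In the mitochondrial branch the steps on either side of MTHFD2 were nearer to their sicontrol levels. MTHFD2 was chosen for its lower level, so nothing is read from its contrast with these steps. SHMT2, which supplies the substrate of MTHFD2, measured 181, 178 and 228 FPKM in siPOU2F1 replicates 1 to 3, against 235, 266 and 236 FPKM in sicontrol replicates 1 to 3. The groups did not overlap, but siPOU2F1 replicate 3 lay close below the lowest sicontrol library. SHMT2 had a log2 difference of -0.34 (SE 0.13; limma, adjusted p = 0.229), and without siPOU2F1 replicate 3 it was -0.45 (adjusted p = 0.0212).

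MTHFD1L, the mitochondrial formate-tetrahydrofolate ligase, measured 29.2, 28.8 and 38.9 FPKM in siPOU2F1 replicates 1 to 3, against 33.8, 37.1 and 30.2 FPKM in sicontrol replicates 1 to 3. Replicates 1 and 2 of siPOU2F1 lay below every sicontrol library and replicate 3 lay above them all. Its log2 difference was -0.07 (95% interval -0.42 to 0.29; limma, adjusted p = 0.817). It was -0.21 without siPOU2F1 replicate 3, and the sign turned without sicontrol replicate 2 (0.0030) or without siPOU2F1 replicate 2 (0.0066).

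MTHFD2L, the less abundant paralogue of MTHFD2, measured 1.84, 1.72 and 1.33 FPKM in siPOU2F1 replicates 1 to 3, against 1.41, 1.54 and 1.59 FPKM in sicontrol replicates 1 to 3. The siPOU2F1 values lay on both sides of the sicontrol range, and the log2 difference was 0.07 (95% interval -0.34 to 0.48; limma, adjusted p = 0.830). MTHFD2 made up 97.3%, 97.8% and 98.3% of the summed FPKM of MTHFD2 and MTHFD2L in siPOU2F1 replicates 1 to 3, against 99.1%, 99.0% and 98.9% in sicontrol replicates 1 to 3. MTHFD2 was thus the predominant transcript of the pair in every library of both groups. ALDH1L2, the mitochondrial 10-formyltetrahydrofolate dehydrogenase, measured 1.17, 1.14 and 1.36 FPKM in siPOU2F1 replicates 1 to 3, against 1.58, 1.03 and 1.18 FPKM in sicontrol replicates 1 to 3. Its groups overlapped, with a log2 difference of -0.02 (95% interval -0.47 to 0.43; limma, adjusted p = 0.951), and the sign turned without sicontrol replicate 1 (0.10) or siPOU2F1 replicate 2 (0.0090).

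**Figure D2:**
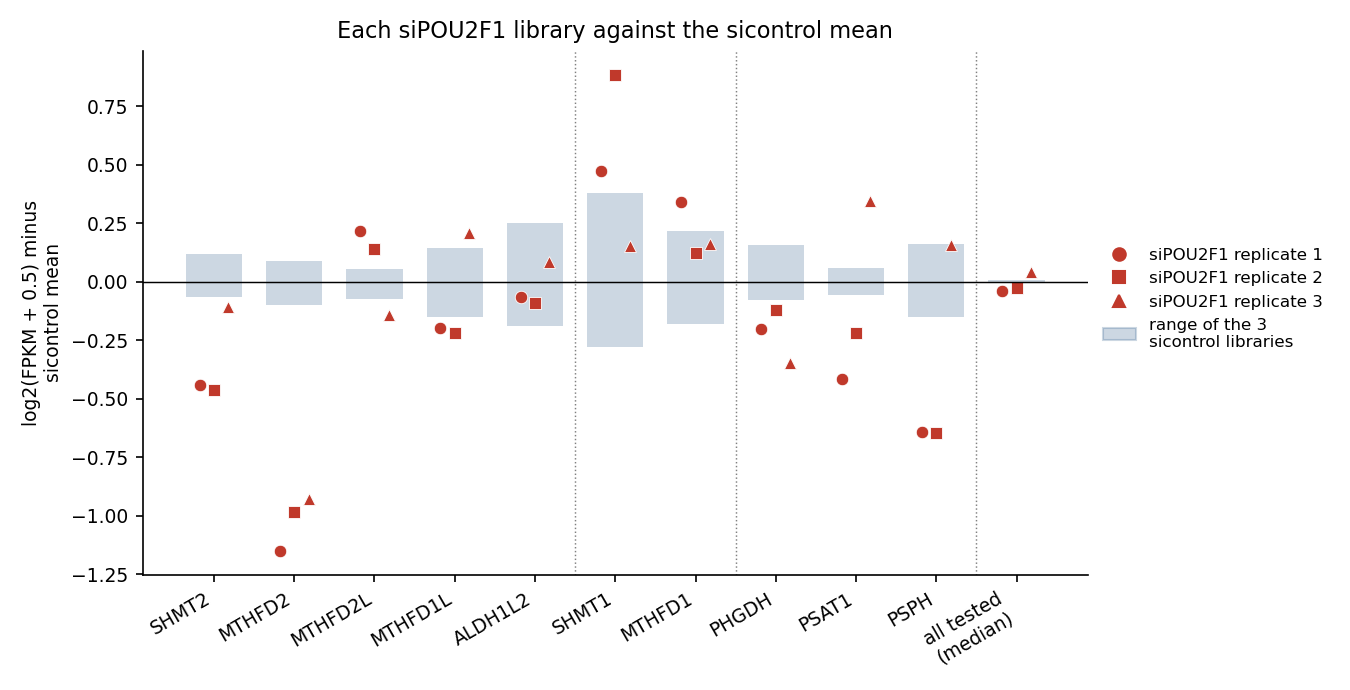
Log2(FPKM + 0.5) of each siPOU2F1 library minus the sicontrol mean (points, by replicate) beside the range of the 3 sicontrol libraries (shaded), for the 10 genes and for the median of all tested genes. For MTHFD2 the 3 points lie at -1.15, -0.99 and -0.93, while for PSPH replicates 1 and 2 lie at -0.64 and -0.65 and replicate 3 at 0.16.

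Both cytosolic genes had higher means in siPOU2F1 cells, without a call. SHMT1, the cytosolic serine hydroxymethyltransferase, measured 14.0, 18.8 and 11.1 FPKM in siPOU2F1 replicates 1 to 3, against 9.24, 8.10 and 13.1 FPKM in sicontrol replicates 1 to 3. The groups overlapped through siPOU2F1 replicate 3 and sicontrol replicate 3, and the log2 difference was 0.50 (95% interval -0.06 to 1.07; limma, adjusted p = 0.315). It was 0.31 without siPOU2F1 replicate 2 and ranged up to 0.69 with another library left out. MTHFD1, the trifunctional cytosolic enzyme, measured 40.6, 34.8 and 35.8 FPKM in siPOU2F1 replicates 1 to 3, against 28.1, 31.2 and 37.2 FPKM in sicontrol replicates 1 to 3. Its groups overlapped through sicontrol replicate 3, and the log2 difference was 0.21 (95% interval -0.11 to 0.52; limma, adjusted p = 0.416). It was 0.12 without sicontrol replicate 1 and 0.32 without sicontrol replicate 3.

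The balance of the branches was described by the mean log2 level of the 5 mitochondrial genes minus that of the 2 cytosolic genes, without a test because the members were chosen. It was -0.52, -0.61 and -0.12 in siPOU2F1 replicates 1 to 3, against 0.40, 0.39 and -0.15 in sicontrol replicates 1 to 3. The groups overlapped, since sicontrol replicate 3 lay just below siPOU2F1 replicate 3. The means were -0.42 ± 0.26 in siPOU2F1 cells and 0.21 ± 0.31 in sicontrol cells (SD, n = 3 each), a difference of -0.63. The mean log2 level differed by -0.28 for the 5 mitochondrial genes, MTHFD2 included, and by 0.36 for the 2 cytosolic genes, neither of them called. With MTHFD2 left out of the score the difference was -0.45, and the groups again overlapped. That value holds the higher cytosolic mean and is not a measure of the mitochondrial genes alone.

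The FPKM ratio of MTHFD2 over SHMT2, consecutive steps of the mitochondrial branch, was 0.372, 0.424 and 0.345 in siPOU2F1 replicates 1 to 3, against 0.678, 0.567 and 0.592 in sicontrol replicates 1 to 3. The groups did not overlap, and siPOU2F1 replicate 3 had the lowest ratio of all libraries. MTHFD2, the numerator, led to the choice of the genes, so nothing is read from that gap. SHMT2 over SHMT1, the mitochondrial and the cytosolic form of the same reaction, was 12.9, 9.46 and 20.5 in siPOU2F1 replicates 1 to 3, against 25.4, 32.9 and 18.1 in sicontrol replicates 1 to 3. This ratio overlapped between the groups through the third library of each. The ratio of MTHFD1L to MTHFD1 was 0.877 ± 0.188 in siPOU2F1 cells and 1.07 ± 0.222 in sicontrol cells (SD, n = 3 each), a difference within the spread between replicates.

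**Figure D3:**
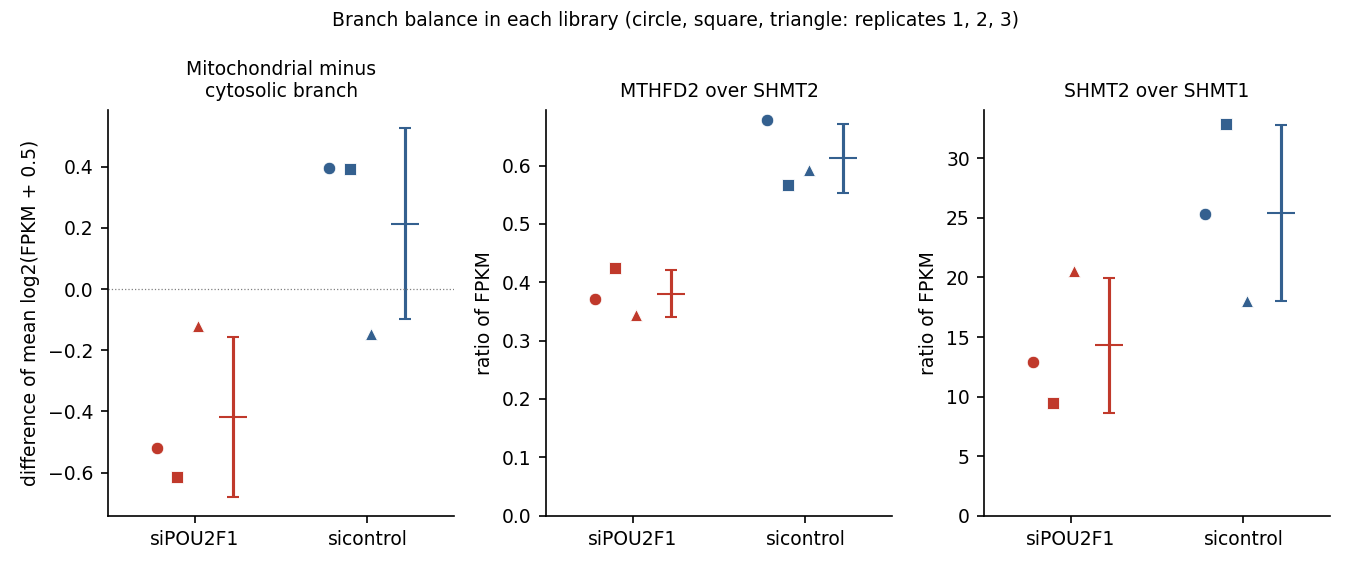
Branch balance in each siPOU2F1 library (red) and sicontrol library (blue), as the mean log2(FPKM + 0.5) of the mitochondrial minus the cytosolic genes (left), the FPKM ratio of MTHFD2 to SHMT2 (middle) and that of SHMT2 to SHMT1 (right), with group mean and SD beside the points. Only the middle panel keeps the groups apart, at 0.345 to 0.424 in siPOU2F1 libraries and 0.567 to 0.678 in sicontrol libraries. Its numerator is MTHFD2, whose lower level led to the choice of the genes.

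Of the serine synthesis genes, PHGDH, the first enzyme of the pathway, measured 95.6, 101 and 86.3 FPKM in siPOU2F1 replicates 1 to 3, against 104, 104 and 123 FPKM in sicontrol replicates 1 to 3. The groups did not overlap, and PHGDH was lowest in siPOU2F1 replicate 3. PHGDH had a log2 difference of -0.22 (SE 0.11; limma, adjusted p = 0.331), and -0.14 without sicontrol replicate 3.

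PSAT1, the aminotransferase of the second step, measured 184, 211 and 311 FPKM in siPOU2F1 replicates 1 to 3, against 236, 255 and 245 FPKM in sicontrol replicates 1 to 3. Replicates 1 and 2 of siPOU2F1 lay below the narrow sicontrol range and replicate 3 lay above it. The log2 difference was -0.10 (95% interval -0.55 to 0.35; limma, adjusted p = 0.793), it was -0.32 without siPOU2F1 replicate 3 (adjusted p = 0.0571), and its sign turned without siPOU2F1 replicate 1 (0.063).

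PSPH, the phosphatase that releases serine, measured 37.5, 37.4 and 65.7 FPKM in siPOU2F1 replicates 1 to 3, against 58.5, 65.9 and 52.9 FPKM in sicontrol replicates 1 to 3. As for PSAT1, replicates 1 and 2 were below every sicontrol library and replicate 3 was not. PSPH had a log2 difference of -0.38 (SE 0.23; limma, adjusted p = 0.396), and -0.64 without siPOU2F1 replicate 3 (adjusted p = 0.0143). It was -0.25 without siPOU2F1 replicate 1 and -0.24 without siPOU2F1 replicate 2.

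Read assignment limits some of these levels. GENCODE release 29 annotates 7 pseudogenes named after MTHFD2, 4 after PSAT1 and 1 each after SHMT1, MTHFD1 and PSPH, and how the authors' counting shared reads with such copies is not given in the sources used here. SLC4A5, on the other strand, overlaps 27.2% of the exonic bases of MTHFD2 and averaged 0.240 FPKM. The largest such share for the other genes was 8.83%, between SHMT2 and an antisense RNA.

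Outside the 10 genes, 55 other genes of folate, serine and glycine metabolism and its regulation were examined, of which 51 were tested. None of the 51 was called, against 1.24% of all tested genes (limma; 10 of the 51 had an unadjusted p under 0.05, as did 18.1% of all tested genes). Their median log2 difference was -0.16, with 35 negative and 16 positive. The groups lay apart with siPOU2F1 lower for 7 genes (13.7%, against 12.0% of all tested genes) and with siPOU2F1 higher for 5 (9.80%, against 11.3%), shares near the background. In siPOU2F1 replicate 1, 33 of the 51 (64.7%) lay below every sicontrol library, against 41.7% of all tested genes. The count was 32 (62.7%, against 40.2%) in siPOU2F1 replicate 2 and 10 (19.6%, against 23.9%) in siPOU2F1 replicate 3. Without siPOU2F1 replicate 3, 14 of the 51 were called lower and 2 higher, in a fit that called 15.7% of all tested genes lower and 9.29% higher.

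None of the 7 genes that bring folate to the enzymes was called. SLC25A32, the mitochondrial folate carrier, measured 9.57, 9.85 and 14.0 FPKM in siPOU2F1 replicates 1 to 3, against 15.8, 18.2 and 15.4 FPKM in sicontrol replicates 1 to 3. Its siPOU2F1 values lay below every sicontrol value, with siPOU2F1 replicate 3 the nearest to them. SLC25A32 averaged 11.2 ± 2.51 FPKM in siPOU2F1 cells and 16.5 ± 1.53 FPKM in sicontrol cells (SD, n = 3 each; log2 difference -0.56; limma, adjusted p = 0.165). Without siPOU2F1 replicate 3 it was -0.73 (adjusted p = 0.0112).

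Among the genes that use folate in the cytosol, TYMS, thymidylate synthase, had a log2 difference of -0.20 (limma, adjusted p = 0.367) and MTRR, the reductase that reactivates methionine synthase, had -0.48 (0.377), and none of the 6 tested genes of this list was called. MTRR was -0.81 without siPOU2F1 replicate 3 (limma, adjusted p = 0.0113) and -0.32 without either siPOU2F1 replicate 1 or siPOU2F1 replicate 2. Among 6 purine synthesis genes, also without a call, PPAT, the committing amidotransferase, had -0.16 (0.408) and ATIC, which performs the last formyl transfer, had -0.13 (0.497). Of the mitochondrial genes that use glycine or the formyl unit, 4 of 7 were tested. MTFMT, which formylates the initiator methionyl-tRNA of mitochondria with the folate carbon, averaged 6.56 ± 0.454 FPKM in siPOU2F1 cells and 4.71 ± 0.988 FPKM in sicontrol cells (SD, n = 3 each; log2 difference 0.45; limma, adjusted p = 0.224). DLD, a subunit of the glycine cleavage system, had -0.09 (0.596).

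**Figure D4:**
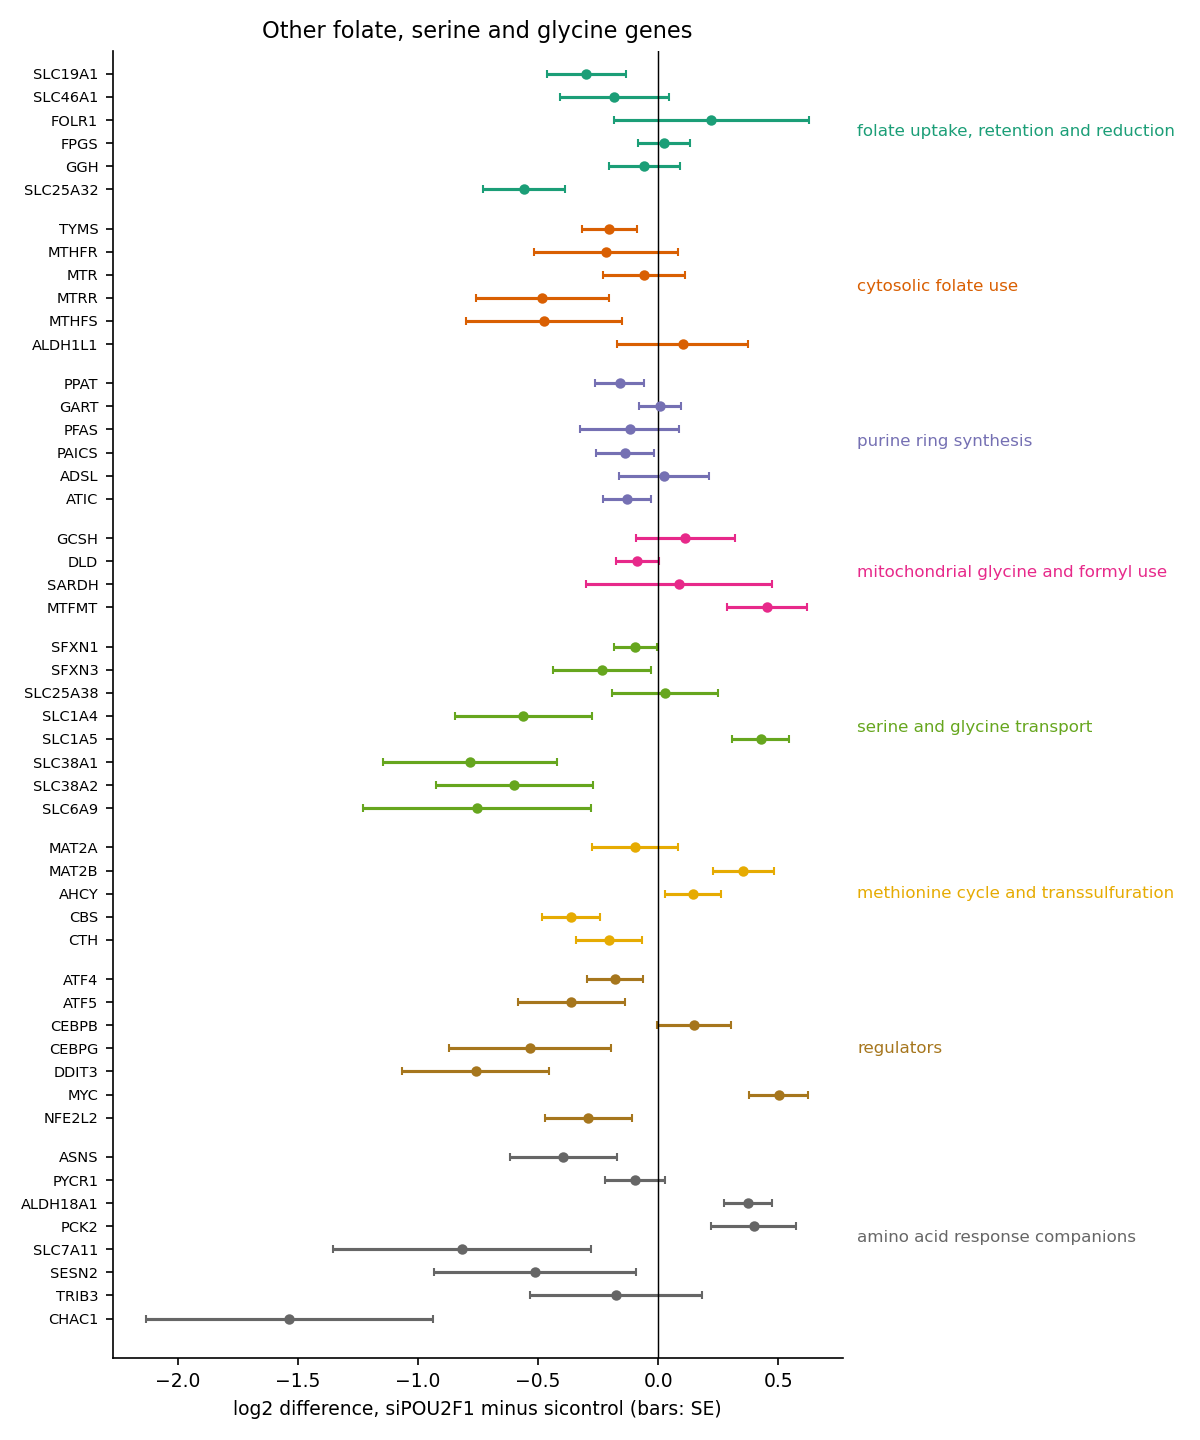
Log2 difference, siPOU2F1 minus sicontrol, with its SE, for tested genes of folate, serine and glycine metabolism and its regulation outside the 10 enzymes, grouped by role. Of the genes drawn, CHAC1 has the lowest value (-1.54) and MYC the highest (0.50), and none was called.

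Of 8 transporters of serine and glycine, 6 had a negative and 2 a positive log2 difference, with a median of -0.40. SLC1A5, a neutral amino acid carrier, averaged 560 ± 57.8 FPKM in siPOU2F1 cells and 416 ± 40.2 FPKM in sicontrol cells (SD, n = 3 each; log2 difference 0.43; limma, adjusted p = 0.142), with siPOU2F1 replicate 3 the highest. SLC38A1, a sodium-coupled carrier, measured 34.7, 34.9 and 84.5 FPKM in siPOU2F1 replicates 1 to 3, against 78.0, 105 and 64.9 FPKM in sicontrol replicates 1 to 3 (log2 difference -0.78; limma, adjusted p = 0.307). Its low values were in siPOU2F1 replicates 1 and 2 alone, and without siPOU2F1 replicate 3 the difference was -1.21 (limma, adjusted p = 0.0112). In the methionine cycle and transsulfuration list CBS, which joins serine to homocysteine, had -0.36 (limma, adjusted p = 0.192; -0.46 and 0.0201 without siPOU2F1 replicate 3), and MAT2B, a regulatory subunit of methionine adenosyltransferase, had 0.35 (0.213).

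Among the regulators, ATF4 measured 177, 216 and 221 FPKM in siPOU2F1 replicates 1 to 3, against 229, 217 and 246 FPKM in sicontrol replicates 1 to 3. Replicate 1 of siPOU2F1 lay below the sicontrol range, replicate 2 only just below its lowest value and replicate 3 within it. The log2 difference was -0.18 (95% interval -0.45 to 0.10), and ATF4 was not called (limma, adjusted p = 0.426). MYC, a known activator of nucleotide and folate genes, averaged 238 ± 35.2 FPKM in siPOU2F1 cells and 167 ± 0.540 FPKM in sicontrol cells (SD, n = 3 each; 0.50; limma, adjusted p = 0.113). Without siPOU2F1 replicate 3 MYC had 0.62 (adjusted p = 0.00956). DDIT3, a stress-induced factor downstream of ATF4, had -0.76 (0.256).

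Of the 8 companion genes of the amino acid response, 6 were below every sicontrol library in siPOU2F1 replicates 1 and 2 and not in replicate 3. So were 3 of the 10 enzymes (MTHFD1L, PSAT1 and PSPH) and 23.0% of all tested genes. Among these 6, CHAC1, a glutathione-degrading enzyme and known ATF4 target, measured 3.68, 3.64 and 18.8 FPKM in siPOU2F1 replicates 1 to 3, against 18.7, 27.3 and 14.7 FPKM in sicontrol replicates 1 to 3 (log2 difference -1.54; limma, adjusted p = 0.242). Without siPOU2F1 replicate 3 the difference was -2.27 (adjusted p = 0.00575). CHAC1 was low in siPOU2F1 replicates 1 and 2 and within the sicontrol range in replicate 3. ALDH18A1, a proline synthesis enzyme in the same list, averaged 30.5 ± 1.46 FPKM in siPOU2F1 cells and 23.4 ± 1.37 FPKM in sicontrol cells (SD, n = 3 each; 0.37; limma, adjusted p = 0.133), and it had 0.41 without siPOU2F1 replicate 3 (adjusted p = 0.0281).

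The genes whose levels followed MTHFD2 most closely over the 6 libraries came from outside the pathway. By Pearson correlation of log2(FPKM + 0.5) among 8694 other genes averaging 5 FPKM or more, they were OSTC (r = 0.9998), CENPI (0.998), CCP110 (0.997), AGRN (0.996) and USP12 (0.996). OSTC, a subunit of oligosaccharyltransferase, measured 23.3, 24.8 and 25.2 FPKM in siPOU2F1 replicates 1 to 3, against 38.5, 37.7 and 35.7 FPKM in sicontrol replicates 1 to 3. Like MTHFD2 it was lowest in siPOU2F1 replicate 1 and highest in sicontrol replicate 1. The 6 points fall into the 2 groups for such genes, so r mainly carries the group difference, and it has no test. Among the 10 genes SHMT2 was the most like MTHFD2, at r = 0.829 and rank 858 of the 8694, and MTHFD1 the least, at r = -0.72.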

How the data were processed

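Each of the 6 libraries came with a table of FPKM values that the authors deposited, listing 20474 annotated genes and 2308 assembled transcripts, which were not used. The library kit was directional, per the labels' protocols. Tools named in the submitters' processing notes are StringTie 2.1.2, HISAT2 2.0.4 and Bowtie2 2.2.5, on hg38, with no roles. How strand, filters and annotation entered the counting is not given in the sources used here. Groups came from the library titles.

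The deposited FPKM values were not rescaled. Genes averaging 1 FPKM or more were fitted as log2(FPKM + 0.5), with group as the only term and a mean-variance trend, using R 4.3.3 and limma 3.58.1. The procedure was tested on simulated data with 3 libraries a group. It called 8.8% of simulated log2 changes of 0.5, 52.9% of changes of 1 and 88.6% of changes of 2. A gene that was not called is therefore not shown to be unchanged. Positions, overlaps and 3′ UTRs are from GENCODE release 29 (GRCh38, 1-based), and promoters from RefSeq (GRCh38.p14). Alternatives covered the pseudocount, filter, scaling, variance model, library weights, replicate block and each library left out. The members and lists were chosen with earlier results of these data known. Named genes are the 10 members, POU2F1, the 2 genes with the lowest p in each list and the 5 most like MTHFD2, of which 1 list gene is not reported here. ATF4, SLC4A5 and the marker genes were named outside that rule.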

Additional observations from a re-analysis of the deposited data

How the results depend on the processing

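Under every alternative MTHFD2 kept a log2 difference between -1.08 and -0.96. Its shift from the main value of -1.02 was always smaller than the spread between replicates. Of the 9 other members, 0 were called under all settings except library weights, where SHMT1 and MTHFD1 were called higher and SHMT2 and PSPH lower (4 in all, with 30 of the other pathway genes and 5963 genes overall), and without siPOU2F1 replicate 3. With each library left out in turn the number of members called ranged from 0 to 2, of pathway genes from 0 to 16 and of all genes from 0 to 2954. The count over all genes was 72 with no filter, 93 with no mean-variance trend and 0 with the replicate number as a block. POU2F1 kept its direction but was not called with no filter (-0.99, adjusted p = 0.0650) or with the replicate block (-0.99, adjusted p = 0.297), and ranged from -1.06 to -0.95 with a library left out (limma). Deviations of same-numbered libraries from their group means correlated across genes at r = 0.13, -0.54 and -0.51. With means of only 3 libraries, these values cannot show whether such libraries shared a batch, and the labels do not say. The replicate block called 0 members (0 with an unadjusted p under 0.05). ALDH1L2 turned sign after quantile normalization (0.019) and ranged from -0.12 to 0.10 with a library left out, as MTHFD1L did from -0.21 to 0.0066 and PSAT1 from -0.32 to 0.063. The causes were not tested. The branch difference lay between -0.81 and -0.45 throughout, where -0.45 is the score with MTHFD2 left out. With a library left out it lay between -0.81 and -0.53. The SHMT2 share of both SHMT transcripts then differed by -4.38 to -1.92 percentage points. FPKM gives no counts, so counting error at the low levels of MTHFD2L and ALDH1L2 is unknown.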
